A study of Mus musculus with 12 samples.

Results

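The tumor necrosis factor (TNF) superfamily comprises signaling ligands and the receptors that bind them, and 42 of the 53801 genes in the deposited table belonged to it by a rule on gene symbols. A gene was a member when its symbol began with Tnfsf or Tnfrsf followed by a digit, or was Tnf, Lta, Ltb, Ltbr, Fas, Fasl, Cd40, Cd40lg, Cd27 or Cd70. The members were 17 ligands, 24 receptors and 1 antisense RNA, Tnfsf13os, which lies opposite Tnfsf13. The rule used no measured value. RNA was sequenced from the hearts of male C57BL/6N mice aged 10 to 14 weeks, in 3 groups of 4 hearts: sham, 1 day after acute myocardial infarction (day 1 AMI) and 7 days after it (day 7 AMI). AMI was produced by tying off the left anterior descending coronary artery permanently. The labels name the tissue as heart and give no day for the sham hearts. The questions addressed here were which ligands and receptors of the family differed between infarcted and sham hearts, and which differed between the 2 times.

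Most ligands of the family are trimeric membrane proteins that can be cleaved to soluble forms. Receptors with a death domain, such as TNFR1, Fas, DR3 and the TRAIL receptor, can recruit adaptors that lead to caspase activation. Receptors without a death domain mostly recruit TRAF proteins, and receptors of both kinds can activate NF-κB. Some receptors, among them osteoprotegerin, lack a signaling domain and act as decoys. In the injured heart the family is known for cytokine signaling by TNF and for the receptor Fn14, which responds to injury in many tissues.

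The libraries held between 23204551 and 32166517 counts, with a median of 25338048. All 8 cardiomyocyte markers examined were present, and their summed level was 69202 to 82817 CPM (counts scaled to the size and composition of the library) in sham hearts, 43310 to 54660 CPM in day 1 AMI hearts and 39882 to 45543 CPM in day 7 AMI hearts. Monocyte and macrophage markers (10 genes) summed to 234 to 356, 491 to 743 and 714 to 1125 CPM in the same order, and fibroblast markers (7 genes) to 960 to 1209, 1451 to 1977 and 6702 to 12406 CPM. Neutrophil markers (8 genes) summed to 2.44 to 57.1 CPM in sham hearts, 38.2 to 135 CPM in day 1 AMI hearts and 7.53 to 38.7 CPM in day 7 AMI hearts. T cell markers (10 genes) summed to 6.57 to 9.51, 5.25 to 11.1 and 12.2 to 17 CPM. Cd28 made up most of that sum in sham hearts (mean 5.19 CPM) and was lower at day 1 (log2 FC -1.11), while Cd3e (1.72) and Lck (2.25) were higher. No marker on these lists was at 0 in every heart, and the part of these markers in the results below was not tested. In RNA from whole tissue, fewer cells of a type and less RNA per cell cannot be told apart. Sham heart 2 stood apart from the other sham hearts by its erythroid markers, which summed to 4455 CPM against 491 to 1180 CPM, and it had the highest neutrophil sum of its group, so results that rest on it are given with and without it.

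A differentially expressed gene (DEG) was called where the fold change (FC) reached 2 and the adjusted p (false discovery rate, FDR) stayed below 0.05 in edgeR's quasi-likelihood test over all 15306 genes that passed a filter on low counts. Of the 42 members, 27 passed that filter (8 ligands and 19 receptors) and 15 did not. Levels of different genes are compared only in TPM, the transcript abundance that takes gene length into account.

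The sequences before the RefSeq start sites are shown for the receptor with the highest level and for the 3 ligands that were DEGs. They come from RefSeq on GRCm38.p6 and run 5′ to 3′ on the strand of the gene up to the first base that GENCODE M21 places in an exon. The Tnfrsf12a window is chr17:23677469-23677699 (minus strand), that of Tnf chr17:35202008-35202257 (minus strand), that of Ltb chr17:35194257-35194438 (plus strand) and that of Tnfsf14 chr17:57194182-57194431 (minus strand). Capitals mark matches to the κB consensus, to the AP-1 motif TGANTCA or to TATAAA, searched on both strands.
Tnfrsf12a: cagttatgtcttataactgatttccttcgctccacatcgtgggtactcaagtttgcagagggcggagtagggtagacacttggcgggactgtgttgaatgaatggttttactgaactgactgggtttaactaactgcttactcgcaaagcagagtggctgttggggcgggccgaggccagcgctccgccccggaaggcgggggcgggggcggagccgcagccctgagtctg
Tnf: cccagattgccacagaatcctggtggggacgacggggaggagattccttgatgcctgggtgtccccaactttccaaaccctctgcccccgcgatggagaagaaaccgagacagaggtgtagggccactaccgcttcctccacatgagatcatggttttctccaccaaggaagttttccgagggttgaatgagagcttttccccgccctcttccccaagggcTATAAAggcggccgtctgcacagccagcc
Ltb: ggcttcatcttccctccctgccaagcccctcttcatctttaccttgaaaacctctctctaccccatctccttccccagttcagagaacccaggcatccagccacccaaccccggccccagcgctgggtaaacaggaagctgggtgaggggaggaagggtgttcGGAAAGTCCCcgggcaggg
Tnfsf14: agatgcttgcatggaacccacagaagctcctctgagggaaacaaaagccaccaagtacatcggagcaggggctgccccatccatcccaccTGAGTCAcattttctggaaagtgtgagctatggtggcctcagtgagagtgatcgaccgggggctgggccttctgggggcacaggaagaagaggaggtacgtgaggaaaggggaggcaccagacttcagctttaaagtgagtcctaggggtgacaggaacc

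In whole windows of 250 bases, RefSeq entries were found for 31 of the 42 members, with 35 start sites. The κB consensus was present before 4 of these members (Ltb, Tnfrsf8, Tnfrsf9 and Tnfrsf25) and in 7.25% of all 32851 windows of that length. TGANTCA stood before 6 members (Fas, Tnfrsf8, Tnfrsf9, Tnfsf13, Tnfsf13b and Tnfsf14) and in 6.75% of all windows. TATAAA stood before 6 members (Lta, Tnf, Tnfrsf17, Tnfrsf23, Tnfsf11 and Tnfsf18) and in 12.4% of all windows. The Tnfrsf12a window held none of the 3. A match describes the letters of a window only. Several members are neighbors in the GRCm38 genome: Ltb, Tnf and Lta lie within 10.9 kb on chromosome 17, Tnfsf9, Cd70 and Tnfsf14 within 88.9 kb of the same chromosome, and Tnfrsf26, Tnfrsf22 and Tnfrsf23 within 78.2 kb on chromosome 7. Neighbors did not always have the same result: Tnf and Ltb were DEGs at both times while Lta had at most 4 counts in a heart, and Tnfsf14 was a DEG while Tnfsf9 was not and Cd70 had no count in any heart.

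At day 1 AMI, 11 members were higher than in sham hearts and 1 was lower, and the remaining 15 tested members did not pass. Over all genes tested, 7.75% were higher and 2.93% lower by the same rule. At day 7 AMI, 15 members were higher and 1 was lower, beside 15.3% and 5.85% of all genes. Both comparisons use the same 4 sham hearts. The median log2 FC of the tested members was 0.76 at day 1 and 1.20 at day 7, and that of all genes was -0.01 and 0.03. Some members, among them Tnf, Tnfsf14, Tnfrsf9 and Tnfrsf11b, passed the filter on low counts through infarcted hearts. Their counts in sham hearts were 2, 21, 4 and 4, then 4, 6, 1 and 3, then 0, 11, 1 and 2, then 6, 4, 2 and 1. Such members could enter these counts and medians as higher after AMI but hardly as lower. The same filter was applied to all genes. Ligands accounted for 3 of the members that were higher at day 1 and for 3 at day 7, and receptors for 8 and 12. From day 1 to day 7, 3 members rose and 3 fell, beside 8.49% and 2.63% of all genes. The last split depended on scaling, since with library sizes alone it was 6 higher and 2 lower. With limma on log2(TPM + 0.1) it was 5 higher and 1 lower, but the filter of that fit left out Tnfsf14, Tnfrsf9 and Tnfrsf26. For all genes, library sizes alone gave 1758 higher and 216 lower at day 1, against 1186 and 448 with composition scaling, and 3631 and 316 at day 7, against 2338 and 895. From day 1 to day 7 the same change gave 1618 higher and 286 lower, against 1300 and 402. With limma on log2(TPM + 1) the values of Tnfrsf10b (0.98) and Tnfrsf11a (0.85) at day 1, of Tnfrsf14 (0.97) and Tnfrsf22 (0.85) at day 7 and of Tnfrsf25 (0.89) between the times fell under the FC of 2, with and without a filter. Tnfrsf26 was lost at day 1 (0.43) and between the times (0.65) in the unfiltered one. Tnfrsf1a and Tnfsf10 passed at day 7 against sham with library sizes alone and in the 3 TPM fits, with values up to 1.23 and 1.15. Cd40 and Tnfsf10 passed from day 1 to day 7 in the same 4 fits, with values up to 1.38 and 1.14.

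**Figure D1:**
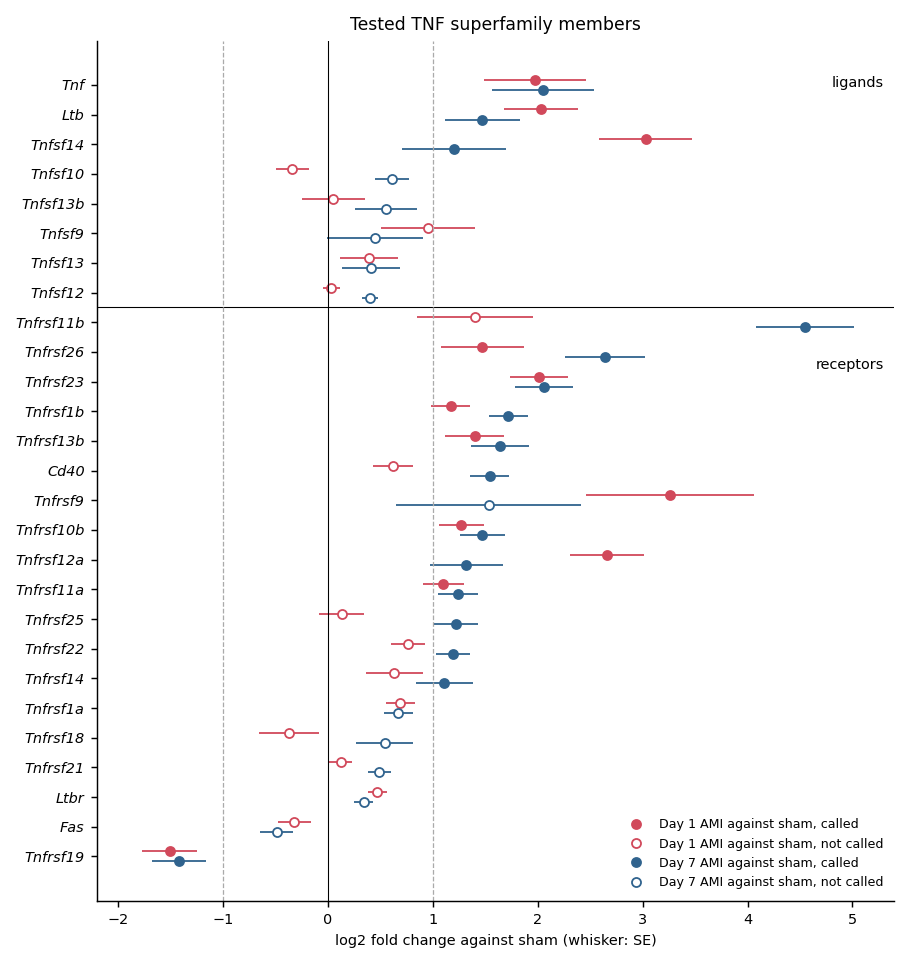
Log2 FC against sham of the 27 tested members at day 1 AMI (red) and day 7 AMI (blue), with ligands above the line and receptors below it, each ordered by day 7. Filled points are DEGs, whiskers are SEs and dashed lines mark a FC of 2. Most points lie right of 0, Tnfrsf11b reaches 4.55 at day 7, and only Tnfrsf19 is a DEG to the left.

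Among the ligands, Tnf, Ltb and Tnfsf14 rose, and the ligands with the highest levels did not become DEGs. Tnf encodes TNF itself. Its level was 0.104, 0.862, 0.194 and 0.191 CPM in sham hearts 1 to 4, 1.72, 1.34, 1.6 and 0.946 CPM in the day 1 AMI hearts and 1.88, 1.16, 0.922 and 1.94 CPM in the day 7 AMI hearts. Each infarcted heart was above each sham heart, but by a small margin over sham heart 2, which held 21 of the 31 counts of Tnf in that group. The log2 FC was 1.97 (SE 0.485, adjusted p = 0.00486) at day 1 and 2.05 (SE 0.484, adjusted p = 0.00198) at day 7. With limma on log2(TPM + 1) the day 1 value was 0.90 and was not called. Without sham heart 2 the edgeR values were 3.05 (adjusted p = 0.000212) and 3.14 (adjusted p = 4.05e-05). Between the 2 times Tnf differed by 0.08 on the log2 scale (SE 0.407, adjusted p = 0.883).

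Ltb, lymphotoxin β, forms trimers with lymphotoxin α that bind the lymphotoxin β receptor. Its level was 0.522, 0.452, 0.825 and 0.478 CPM in sham hearts, 2.87, 3.28, 1.64 and 1.54 CPM at day 1 and 1.6, 0.927, 1.51 and 2.24 CPM at day 7. Infarcted hearts lay above sham hearts at both times, and the day 1 and day 7 hearts overlapped. The log2 FC of Ltb was 2.03 (SE 0.35, adjusted p = 0.000428) at day 1 and 1.47 (SE 0.357, adjusted p = 0.00239) at day 7. Ltbr, the receptor, was at 34.7, 39.6, 33.5 and 30.1 CPM in sham hearts, 47.3, 50.1, 47.6 and 45.7 CPM at day 1 and 48.8, 41.2, 40 and 44.8 CPM at day 7. It was above sham in each infarcted heart, with a log2 FC of 0.47 (SE 0.0913, adjusted p = 0.00103) at day 1 and 0.34 (SE 0.0913, adjusted p = 0.00457) at day 7, below the FC of 2.

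Tnfsf14 encodes LIGHT, a ligand of the lymphotoxin β receptor and of HVEM, the product of Tnfrsf14. It had 0.209, 0.246, 0.0485 and 0.143 CPM in sham hearts, 1.53, 2.12, 0.72 and 1.1 CPM at day 1 and 0.37, 0.309, 0.48 and 0.374 CPM at day 7. The 3 groups did not overlap, and day 1 was the highest. The log2 FC was 3.03 (SE 0.444, adjusted p = 0.000138) at day 1 and -1.82 (SE 0.374, adjusted p = 0.00106) from day 1 to day 7. At day 7 it was 1.20 against sham (SE 0.497, adjusted p = 0.0488), a call that was lost without any one of 9 of the 12 hearts, with values between 0.91 and 1.32 and adjusted p between 0.0538 and 0.133 where it was lost. It was lost with DESeq2, with DESeq2's size factors, with no filter on low counts and with unfiltered log2(TPM + 1) too. In the last of these the day 1 rise (0.94) and the later fall (-0.62) of Tnfsf14 were also lost. Its receptor gene Tnfrsf14 had 1.04, 1.72, 0.922 and 1.1 CPM in sham hearts, 1.38, 2.48, 2.09 and 1.48 CPM at day 1 and 2.96, 2.43, 1.88 and 3.16 CPM at day 7. Only the day 7 hearts were clear of the sham hearts, with a log2 FC of 1.11 (SE 0.268, adjusted p = 0.00228), whereas at day 1 it was 0.63 (SE 0.271, adjusted p = 0.0767).

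By TPM, Tnfsf12 was the highest ligand in each group, followed by Tnfsf10. Tnfsf12, which encodes TWEAK, made up 66% of the summed TPM of the 17 ligands in sham hearts, 55.7% at day 1 and 58.1% at day 7. Tnfsf10 encodes TRAIL, which can trigger apoptosis. Its level was 18.3, 17, 17.3 and 24.4 CPM in sham hearts, 13.7, 12.2, 17.1 and 18.1 CPM at day 1 and 22.3, 30.8, 30.8 and 33.9 CPM at day 7. The day 7 hearts were above the day 1 hearts and overlapped the sham hearts, with log2 differences of 0.95 (SE 0.158, adjusted p = 0.000236) and 0.61 (SE 0.158, adjusted p = 0.00381), both under the FC of 2. The other tested ligands were Tnfsf9, Tnfsf13 and Tnfsf13b, and by the edgeR test their adjusted p was at least 0.104 in each comparison. Tnfsf9 became a DEG at day 1 without sham heart 2. It also passed at day 1 with library sizes alone and with log2(TPM + 0.1), with values up to 1.38. At day 7 against sham, Tnfsf9 and Tnfsf13b passed with log2(TPM + 0.1), with values up to 1.09 and 1.29. Exons of Tnfsf12 and Tnfsf13 are shared with a readthrough gene, Tnfsfm13, over 48.3% and 60% of their bases, and the way such reads were counted is not given in the sources used here, so the levels of both are uncertain. Tnfsf13 and Tnfsf9 also overlap genes on the opposite strand, over 13.5% and 14.9% of their exon bases. So do the receptor genes Tnfrsf18 (27.2%), Tnfrsf23 (4.14%) and Tnfrsf26 (3.33%).

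Tnfrsf12a encodes Fn14, the receptor of TWEAK, and was the receptor with the highest TPM in each group. Its level was 22, 30.4, 34.5 and 24.2 CPM in sham hearts, 207, 254, 163 and 78.1 CPM in day 1 AMI hearts and 103, 54.2, 54.2 and 65.7 CPM in day 7 AMI hearts. All infarcted hearts were above all sham hearts. Day 1 heart 4 lay below day 7 heart 1, so the 2 infarcted groups overlapped. The log2 FC was 2.66 (SE 0.357, adjusted p = 0.000251) at day 1, 1.32 (SE 0.345, adjusted p = 0.00677) at day 7 and -1.34 (SE 0.338, adjusted p = 0.00778) from day 1 to day 7. In TPM, Tnfrsf12a averaged 44 ± 11.6 in sham hearts, 341 ± 143 at day 1 and 159 ± 55.9 at day 7 (SD, n = 4). It made up 33.2%, 68.3% and 44.1% of the summed TPM of the 24 receptors.

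The ligand gene did not follow the receptor gene at day 1. Tnfsf12 was at 17, 17.6, 17.3 and 16.6 CPM in sham hearts, 15.9, 17.6, 18.2 and 18.4 CPM at day 1 and 23.5, 21.5, 23.9 and 21.4 CPM at day 7. Sham and day 1 hearts overlapped, and the day 7 hearts were above both, with log2 FCs of 0.03 (SE 0.0804, adjusted p = 0.755) at day 1 and 0.40 (SE 0.0801, adjusted p = 0.000554) at day 7. The ratio of Tnfrsf12a TPM to Tnfsf12 TPM within a heart was 2.17 to 3.17 in sham hearts, 6.89 to 24.2 at day 1 and 3.8 to 7.39 at day 7. Ratios in infarcted hearts exceeded those of all sham hearts, and day 1 heart 4 again lay below day 7 heart 1.

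**Figure D2:**
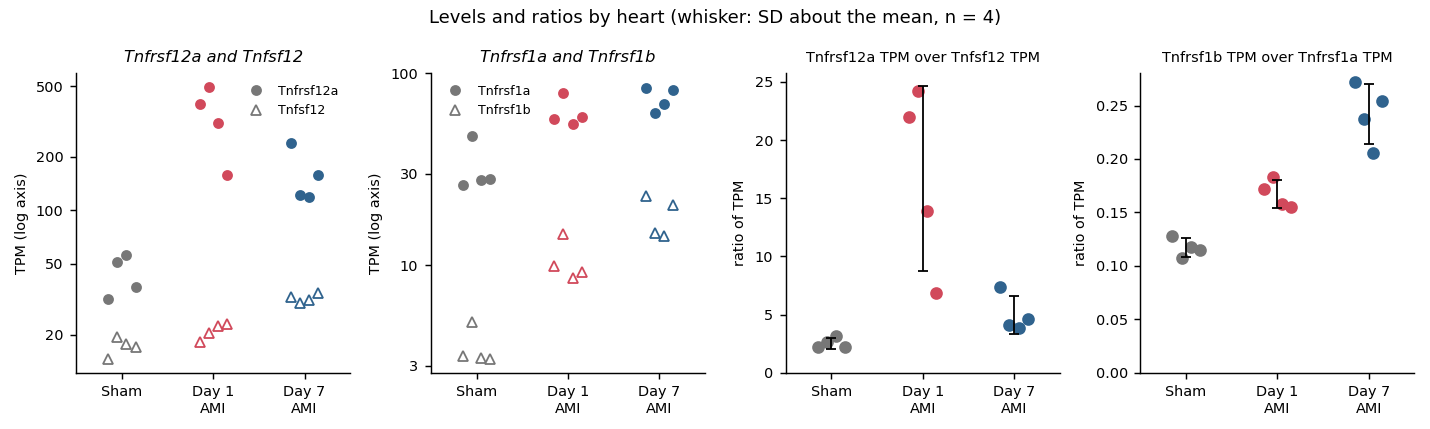
Levels in TPM (log axis) of Tnfrsf12a with Tnfsf12 and of Tnfrsf1a with Tnfrsf1b, and the within-heart ratios of their TPM, by group. Each point is a heart, and whiskers in the ratio panels span 1 SD about the mean (n = 4). The Tnfrsf12a to Tnfsf12 ratio peaks at day 1 (mean 16.7) and the Tnfrsf1b to Tnfrsf1a ratio is highest at day 7 (mean 0.242).

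TNF binds TNFR1, a death domain receptor encoded by Tnfrsf1a, and TNFR2, encoded by Tnfrsf1b. Tnfrsf1a was at 49, 68, 46.4 and 49.8 CPM in sham hearts, 81, 107, 77.3 and 77.8 CPM at day 1 and 96, 72, 83.2 and 89.2 CPM at day 7. It was above sham in each infarcted heart, by 0.69 (SE 0.138, adjusted p = 0.00131) and 0.67 (SE 0.138, adjusted p = 0.000679) on the log2 scale, short of the FC of 2. Tnfrsf1b was at 12, 15.5, 10.4 and 10.9 CPM in sham hearts, 26.7, 36.7, 23.2 and 23.3 CPM at day 1 and 49.8, 33.1, 33 and 44.4 CPM at day 7. Infarcted hearts were all above sham hearts, with log2 FCs of 1.17 (SE 0.186, adjusted p = 0.00032) at day 1 and 1.72 (SE 0.187, adjusted p = 3.89e-06) at day 7. Without day 1 heart 2 the day 1 value was 1.00 (adjusted p = 0.000592) and just missed the FC of 2. By TPM, TNFR1 transcripts exceeded TNFR2 transcripts in all 12 hearts, and the ratio of Tnfrsf1b to Tnfrsf1a was 0.107 to 0.128 in sham hearts, 0.155 to 0.183 at day 1 and 0.206 to 0.272 at day 7, with no overlap between the groups.

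The receptor with the largest FC at day 7 was Tnfrsf11b, which encodes osteoprotegerin, a secreted decoy for RANKL and TRAIL. It had 0.313, 0.164, 0.097 and 0.0478 CPM in sham hearts, 0.574, 0.597, 0.262 and 0.221 CPM at day 1 and 5.82, 3.32, 2.62 and 2.99 CPM at day 7. The day 7 hearts were far above both other groups, which overlapped each other. The log2 FC was 4.55 (SE 0.467, adjusted p = 1.29e-06) against sham and 3.16 (SE 0.385, adjusted p = 1.54e-05) against day 1, and at day 1 against sham it was 1.40 (SE 0.553, adjusted p = 0.0548). The day 1 value of Tnfrsf11b did pass with DESeq2, with library sizes alone, with no filter on low counts, with the replicate block and without any one of 4 hearts. Its sham hearts held only 6, 4, 2 and 1 counts, so the size of its FC and of ratios to it is uncertain. Over the alternatives its day 7 value ran from 1.6 to 4.95 against sham and from 1.4 to 3.28 against day 1. Both calls held throughout. Tnfrsf11a encodes RANK, the signaling receptor of RANKL, and had 2.61, 2.71, 2.47 and 1.86 CPM in sham hearts, 4.78, 6.83, 4.25 and 4.82 CPM at day 1 and 7.06, 5.37, 4.76 and 5.71 CPM at day 7. Infarcted hearts were above sham hearts at both times and did not differ by the test between times (log2 difference 0.15, SE 0.179, adjusted p = 0.524). The log2 FC of Tnfrsf11a was 1.10 (SE 0.192, adjusted p = 0.000469) at day 1 and 1.24 (SE 0.192, adjusted p = 5.52e-05) at day 7, and the day 1 value fell under the FC of 2 without day 1 heart 2 (0.93) or sham heart 4 (0.99). In TPM the decoy stood at 0.0488 to 0.135 of RANK in sham hearts, 0.0583 to 0.183 at day 1 and 0.713 to 1.41 at day 7. Tnfsf11, the RANKL gene, was counted 0 times in each sham heart, 1, 13, 2 and 2 times in the day 1 hearts and 9, 9, 2 and 1 times in the day 7 hearts. Against a floor of 3 counts over the sham group this is at least 4.19-fold higher at day 1 and at least 5.18-fold higher at day 7, for counting error only, and 13 of the 18 day 1 counts came from heart 2.

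TRAIL binds the death receptor encoded by Tnfrsf10b and, in mice, decoy receptors encoded by Tnfrsf22 and Tnfrsf23. Tnfrsf26 is a related mouse receptor in the same cluster. Tnfrsf10b had 2.3, 3.16, 3.73 and 2.2 CPM in sham hearts, 8.26, 8.3, 6.28 and 4.73 CPM at day 1 and 9.34, 8.46, 6.86 and 7.01 CPM at day 7. It was above sham in each infarcted heart, with log2 FCs of 1.27 (SE 0.214, adjusted p = 0.000372) and 1.47 (SE 0.214, adjusted p = 3.36e-05). Tnfrsf23 rose further, from 2.09, 2.59, 2.62 and 2.34 CPM in sham hearts to 10.3, 14.1, 8.51 and 6.09 CPM at day 1 and 13.1, 12, 6.35 and 8.67 CPM at day 7. The groups were clear of sham, with log2 FCs of 2.01 (SE 0.274, adjusted p = 0.00011) and 2.06 (SE 0.274, adjusted p = 2.14e-05). Tnfrsf22 had 2.71, 3.16, 3.1 and 2.53 CPM in sham hearts, 5.51, 5.55, 4.97 and 3.53 CPM at day 1 and 6.47, 6.45, 6.94 and 6.43 CPM at day 7. Its 3 groups did not overlap, and it was a DEG at day 7 (log2 FC 1.19, SE 0.16, adjusted p = 1.61e-05) while at day 1 the value was 0.76 (SE 0.161, adjusted p = 0.00176). Tnfrsf26 had 0.365, 0.452, 0.437 and 0.478 CPM in sham hearts, 1.68, 1.4, 0.687 and 1.1 CPM at day 1 and 4.38, 3.05, 2.07 and 1.43 CPM at day 7. Infarcted hearts were above sham, with log2 FCs of 1.47 (SE 0.397, adjusted p = 0.00827) and 2.64 (SE 0.384, adjusted p = 3.22e-05), and the day 1 and day 7 hearts overlapped. The rise of Tnfrsf26 from day 1 to day 7 was 1.17 (SE 0.329, adjusted p = 0.00911), and it fell under the FC of 2 without day 1 heart 3 (0.98) or day 7 heart 1 (0.84). Tnfrsf22 and Tnfrsf23 share 20.8% and 13.1% of the 75-base stretches of their transcripts with other genes, each other included, so part of their reads could be assigned to either.

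Fas, a death receptor, was at 13.7, 12.7, 8.97 and 13.1 CPM in sham hearts, 9.14, 10.1, 8.6 and 10.9 CPM at day 1 and 8.32, 7.42, 11 and 7.72 CPM at day 7. The groups overlapped, and the log2 difference was -0.32 (SE 0.153, adjusted p = 0.105) at day 1 and -0.49 (SE 0.154, adjusted p = 0.0122) at day 7. Over the alternatives the value ran from -0.32 to 0.02 at day 1, above 0 only in fits on TPM, and from -0.52 to -0.01 at day 7. Fasl, its ligand, had 0, 0, 1 and 2 counts in sham hearts, 6, 2, 5 and 0 at day 1 and 1, 8, 3 and 8 at day 7. These counts were too few for the filter. Tnfrsf25 encodes DR3, another death domain receptor, and had 1.36, 1.23, 1.02 and 1.34 CPM in sham hearts, 1.15, 1.49, 1.47 and 1.29 CPM at day 1 and 3.02, 2.09, 2.88 and 3.54 CPM at day 7. Only the day 7 hearts stood apart, with a log2 FC of 1.22 (SE 0.21, adjusted p = 0.00015) against sham and 1.09 (SE 0.202, adjusted p = 0.000505) against day 1, the latter 0.98 without day 7 heart 4. Its ligand gene Tnfsf15 had at most 5 counts in a heart.

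Several receptors best known from lymphocytes were detected at low levels. Tnfrsf9 encodes 4-1BB, a costimulatory receptor of T cells and other leukocytes, and had 0, 0.452, 0.0485 and 0.0956 CPM in sham hearts, 2.6, 2.63, 0.785 and 0.315 CPM at day 1 and 0.678, 0.309, 0.48 and 0.408 CPM at day 7. Day 1 hearts 1 and 2 were high, and heart 4 lay below sham heart 2, which held 11 of the 14 sham counts. The log2 FC at day 1 was 3.26 (SE 0.799, adjusted p = 0.00561), and 4.87 (adjusted p = 0.00185) without sham heart 2. The fall from day 1 to day 7 of -1.73 (SE 0.656, adjusted p = 0.0448) was lost without any one of 8 of the 12 hearts, with adjusted p from 0.05 to 0.129. This fall was also lost with library sizes alone, with no filter on low counts, with unfiltered log2(TPM + 1) and with the replicate block. The day 1 and day 7 hearts overlapped. At day 7 against sham the value was 1.53 (SE 0.88, adjusted p = 0.151). Without sham heart 2 it was called at day 7 too.

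Cd40, a receptor of B cells, macrophages and endothelium, had 1.51, 1.97, 1.7 and 2.15 CPM in sham hearts, 2.45, 3.43, 2.91 and 2.46 CPM at day 1 and 5.33, 4.48, 4.87 and 6.77 CPM at day 7. The 3 groups were in rising order with no overlap, and the log2 FC was 0.62 (SE 0.193, adjusted p = 0.0191) at day 1 and 1.54 (SE 0.19, adjusted p = 6.96e-06) at day 7. Its ligand gene Cd40lg had at most 4 counts in a heart. Tnfrsf13b encodes TACI, a receptor of BAFF and APRIL, and had 1.15, 0.739, 2.04 and 0.813 CPM in sham hearts, 3.1, 3.64, 2.78 and 2.9 CPM at day 1 and 3.94, 3.48, 2.69 and 4.59 CPM at day 7. It was above sham in each infarcted heart, with log2 FCs of 1.40 (SE 0.281, adjusted p = 0.00125) and 1.64 (SE 0.28, adjusted p = 0.000138). The BAFF gene Tnfsf13b was at 1.67, 1.4, 1.5 and 2.3 CPM in sham hearts, 2.41, 1.34, 1.93 and 1.45 CPM at day 1 and 1.91, 1.78, 2.21 and 4.15 CPM at day 7, and the 3 groups overlapped. The other BAFF and APRIL receptor genes, Tnfrsf13c and Tnfrsf17, had at most 8 counts in a heart. B cell markers (8 genes) summed to 2.71 to 9.07 CPM in sham hearts, 4.32 to 9.85 CPM at day 1 and 9 to 12.4 CPM at day 7. Of the 8, 1 was higher at day 1 and 3 at day 7, beside 7.75% and 15.3% of all genes.

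Tnfrsf19, which encodes the receptor TROY, was the member that was lower in infarcted hearts. It had 4.8, 3.86, 6.21 and 6.5 CPM in sham hearts, 1.57, 1.46, 1.9 and 2.52 CPM at day 1 and 1.6, 3.01, 2.03 and 1.36 CPM at day 7. All sham hearts were above all infarcted hearts, with a log2 FC of -1.51 (SE 0.261, adjusted p = 0.00043) at day 1 and -1.42 (SE 0.261, adjusted p = 0.000266) at day 7. On TPM the same direction held but the values were smaller, down to -0.60 at day 1 and -0.40 at day 7, and the calls were lost in 2 and in all 3 of the TPM fits. Of 8 cardiomyocyte markers 5 were DEGs at day 7, all lower, where 5.85% of all genes were lower. The median log2 FC of the 8 markers was -0.68 at day 1 and -1.09 at day 7, and their part in the Tnfrsf19 result was not tested. Tnfrsf18 and Tnfrsf21, which encode GITR and DR6, were not DEGs in any comparison by the edgeR test. Tnfrsf18 passed from day 1 to day 7 with library sizes alone, with log2(TPM + 0.1) and without day 1 heart 2 or day 7 heart 3, and both genes passed at day 7 against sham with log2(TPM + 0.1), by 1.02 and 1.05.

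**Figure D3:**
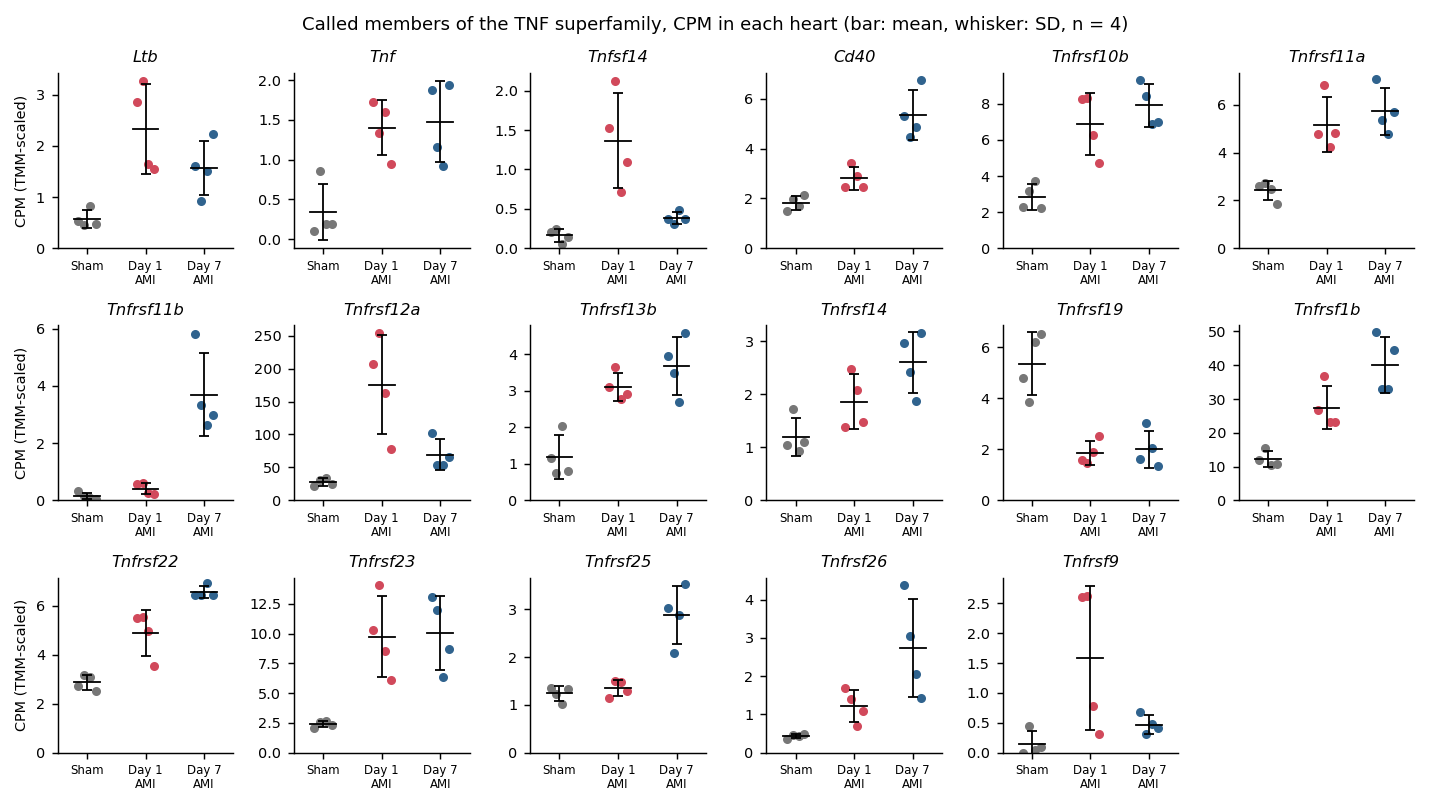
CPM of the 17 members that were DEGs in at least 1 comparison, with a point for each heart, a bar at the mean and a whisker of 1 SD (n = 4). Tnfsf14, Tnfrsf12a and Tnfrsf9 peak at day 1, Tnfrsf11b and Tnfrsf25 stand apart at day 7, and Tnfrsf19 is lower after AMI.

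Hearts of a group did not contribute alike. Day 1 heart 2 was the highest of its group for 18 of the 27 tested members and for 9 of the 11 that were higher at day 1, and hearts 3 and 4 were the lowest for 5 and 6 of those 11. The same heart had the highest sums of monocyte and macrophage markers (743 CPM) and neutrophil markers (135 CPM) and the lowest sum of cardiomyocyte markers (43310 CPM) at day 1. The order of the other day 1 hearts was not the same, since heart 4 had 619 CPM of monocyte and macrophage markers, against 524 and 491 CPM in hearts 1 and 3. Heart 4 also had the highest fibroblast sum at day 1 (1977 CPM). At day 7, heart 1 was the highest for 7 of the 15 members that were higher then, heart 4 for 6, and heart 3 was the lowest for 9. Hearts 1 and 3 had the highest and lowest sums of monocyte and macrophage markers (1125 and 714 CPM) and of fibroblast markers (12406 and 6702 CPM). Heart 4 had 1028 and 8974 CPM of these. The part of these markers in the spread between hearts was not tested. Sham heart 2 was the highest sham heart for 11 of the 27.

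The 15 members below the filter on low counts had at most 25 counts in a heart. Cd70 had none in any heart. Tnfsf8, which encodes CD30 ligand, had 1, 0, 1 and 2 counts in sham hearts, 3, 7, 5 and 2 at day 1 and 21, 12, 2 and 25 at day 7. Tnfsf18, which encodes GITR ligand, had 0, 1, 3 and 1 counts in sham hearts, 9, 20, 10 and 3 at day 1 and 5, 8, 11 and 12 at day 7. The day 7 counts of Tnfsf18 lay above all sham counts, while its day 1 counts and the counts of Tnfsf8 at both times overlapped those of sham hearts. With no filter on low counts and with DESeq2, Tnfsf11 and Tnfsf18 met the DEG thresholds at both times and Tnfsf8 at day 7. Tnfsf4 and Tnfsf15 were at 0 in all sham hearts and had 11 and 8 counts over the day 7 group, at least 2.71-fold and 1.97-fold higher than the floor. Day 7 heart 1 held 8 and 5 of these counts, and the other 3 hearts together held 3 of each, which is the floor itself. Whether the other members of this group differed was not detectable at this depth.

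Signaling genes downstream of the receptors were followed in lists written with earlier results of these data known. Of 13 receptor adaptors and ubiquitin ligases, 1 was higher at day 1 and 2 at day 7, shares close to the 7.75% and 15.3% of all genes: Traf1, a TRAF that NF-κB induces, had a log2 FC of 1.48 (SE 0.257, adjusted p = 0.000443) and 2.38 (SE 0.254, adjusted p = 1.82e-06), and Ripk1, a kinase of the TNFR1 complex, 1.15 (SE 0.124, adjusted p = 1.93e-06) at day 7. The median of the list was 0.29 and 0.22. Of 10 genes for kinases that lead to NF-κB and MAPK and for their partner proteins, none was a DEG by edgeR or by DESeq2 at either time. Of these, 6 and 8 had an unadjusted p under 0.05, and the medians were -0.10 and -0.14. By an adjusted p below 0.05 alone, 1 was higher and 1 lower at day 1, and 3 were higher and 4 lower at day 7. Among 8 genes listed as inhibitors of the pathway none was a DEG at day 1 by either tool, with 6 at an unadjusted p under 0.05. By the adjusted p alone, 5 of them were higher at day 1 and 4 at day 7. Of the listed genes only Tnfaip8l2 was a DEG at day 7, higher by 1.32 (SE 0.23, adjusted p = 0.000165). None of 4 tested genes for shedding and processing of family members was a DEG against sham by either tool, and 1 at day 1 and 4 at day 7 had an unadjusted p under 0.05. By the adjusted p alone, 1 was higher at day 1 and 4 at day 7, at most by 0.85 (Adam10 at day 7, SE 0.0784, adjusted p = 5.21e-07).

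Of 6 genes of the death arm, 3 were higher at day 1 and 4 at day 7, beside 7.75% and 15.3% of all genes. The median log2 FC of the 6 was 0.86 at day 1 and 1.38 at day 7. Ripk3, the kinase of necroptosis, had log2 FCs of 1.71 (SE 0.235, adjusted p = 9.29e-05) and 2.24 (SE 0.235, adjusted p = 1.52e-06), and Mlkl, its substrate, 1.05 (SE 0.166, adjusted p = 0.000238) and 1.42 (SE 0.166, adjusted p = 4.41e-06). Bid, which links caspase 8 to mitochondria, rose by 1.45 and 1.86, and Casp8 itself by 1.34 at day 7. From day 1 to day 7 none of the 6 was a DEG by edgeR or DESeq2, and 4 had an unadjusted p under 0.05. By the adjusted p alone, 3 were higher at day 7 than at day 1.

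Of 14 genes that TNF is known to induce, 9 were higher at day 1, beside 7.75% of all genes. At day 7, 6 were higher and 1 lower, beside 15.3% and 5.85% of all genes. The median log2 FC of the list was 2.41 at day 1 and 0.83 at day 7. From day 1 to day 7, 6 fell and 1 rose, beside 2.63% and 8.49% of all genes. The cytokine Il6 rose by 4.13 (SE 0.535, adjusted p = 6.34e-05) at day 1 and by 3.92 (SE 0.542, adjusted p = 2.07e-05) at day 7. The chemokine Ccl2 rose by 3.73 (SE 0.557, adjusted p = 0.000501) at day 1 and then fell by 2.53 (SE 0.503, adjusted p = 0.00208). Mmp9, a matrix protease that neutrophils also carry, rose by 3.33 (SE 0.554, adjusted p = 0.000832) at day 1 and fell by 4.30 (SE 0.586, adjusted p = 0.000158) from day 1 to day 7. The chemokine Cxcl10 went the other way between times, with 2.62 at day 1, 3.86 at day 7 and a further rise of 1.24 (SE 0.375, adjusted p = 0.0166). Sod2, a mitochondrial antioxidant enzyme, was lower at day 7 by a log2 FC of -1.13 (SE 0.077, adjusted p = 3.99e-08). Many stimuli other than TNF induce these genes, and neutrophil marker sums fell from day 1 to day 7 in the ranges given above. Their part in these values was not tested.

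**Figure D4:**
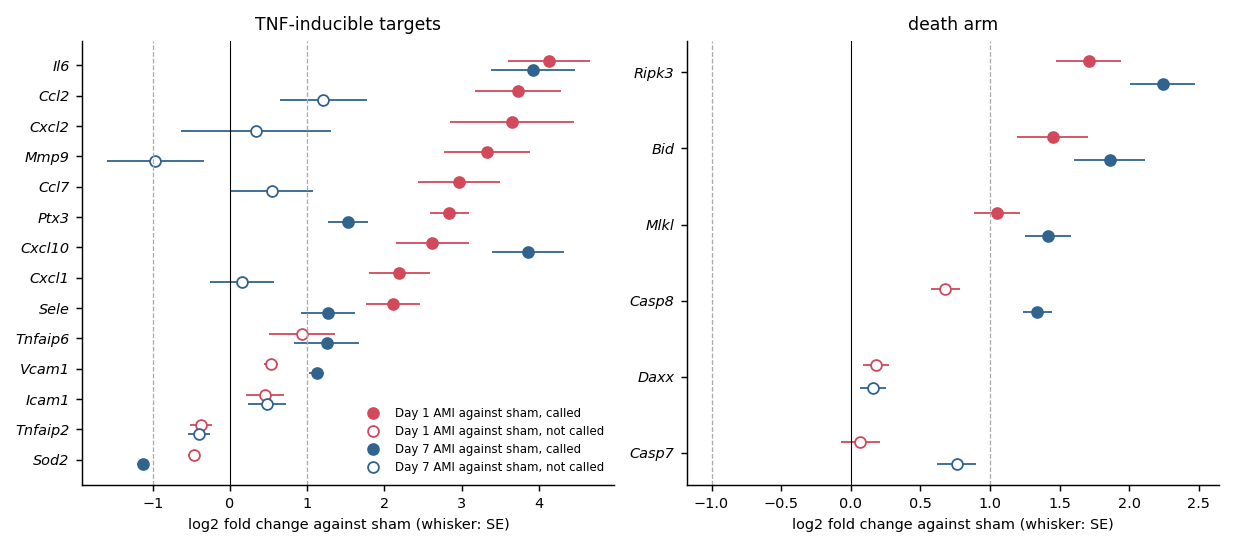
Log2 FC against sham at day 1 AMI (red) and day 7 AMI (blue) of 14 TNF-inducible targets and 6 genes of the death arm. Filled points are DEGs, whiskers are SEs and dashed lines mark a FC of 2. Ccl2, Cxcl2 and Mmp9 are DEGs at day 1 only, while Ripk3, Bid and Mlkl are DEGs at both times.

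Relatives of the family that the symbol rule left out were 5 genes. Ngfr, the low-affinity neurotrophin receptor, had log2 FCs of 2.61 (SE 0.362, adjusted p = 9.68e-05) and 2.32 (SE 0.365, adjusted p = 6.81e-05), and Eda2r, a receptor of ectodysplasin, 1.23 (SE 0.193, adjusted p = 0.000223) and 1.70 (SE 0.193, adjusted p = 3.18e-06). Relt rose at day 1 by 1.29 (SE 0.283, adjusted p = 0.00276) and had 0.42 (SE 0.286, adjusted p = 0.218) at day 7. Edar, another ectodysplasin receptor, was lower at day 1 by a log2 FC of -1.44 (SE 0.388, adjusted p = 0.00828) at a level under 1 CPM. Eda, the ligand, was not a DEG.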

How the data were processed

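RNA-seq of 12 mouse hearts (4 sham, 4 day 1 AMI, 4 day 7 AMI) was used, and groups and replicate numbers came from the sample titles. The authors trimmed reads with Cutadapt, aligned them to Ensembl GRCm38 with STAR 2.4.0j and ran RSEM for quantification. The authors deposited whole-number counts per gene without normalization, and the tool and strand behind them are not given in the sources used here. The deposited TPM values come from RSEM, rounded by the authors. Symbols and coordinates were checked against GENCODE M21, which has all 42 members under the same identifier and symbol.

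Counts were tested with edgeR 4.0.16 in R 4.3.3 (TMM, filterByExpr by group, robust quasi-likelihood test, 1 fit of 3 groups, Benjamini-Hochberg adjustment over 15306 genes). TMM factors were 0.781 to 1.17. SEs are those implied by the quasi-likelihood statistic. On counts of 15306 genes simulated for day 1 AMI against sham, edgeR recovered 195 of 200 changed genes and called 1 other. The real comparison had 1186 higher and 448 lower genes. With far fewer changed genes, the simulation cannot vouch for calls that depend on scaling. Its totals do not separate calls close to the DEG thresholds or at low levels. No statement in the sources describes how hearts were drawn beyond their replicate labels, so p-values measure the spread between these hearts. Counts of 3 were taken as a floor, which covers counting error only. DESeq2 1.42.0 and limma 3.58.1 on log2(TPM + 1) and log2(TPM + 0.1) were alternatives, beside other scalings, filters, leaving out each heart and a replicate block. The TPM fits kept genes with at least 1 TPM in 4 libraries.

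The members and gene lists were chosen with earlier results of these data known. Values in each heart are given for DEGs with a group mean of at least 1 CPM (17 members) and for pairs of ligand and receptor. From each pathway list, DEGs were named out of the 5 with the largest FC per comparison, not all of them. Sod2 was named outside this rule, as the only gene of its list that was a DEG lower than sham. One gene of a pathway list is not reported here. Itgam stands on 2 identifiers and was counted in both. Figures were drawn with matplotlib 3.10.9.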

Additional observations from a re-analysis of the deposited data

Results flagged for a closer look

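Among 81 sets of 4 hearts (27 tested members in 3 groups), 3 held a heart far from the others on log2 CPM, where chance alone flags about 1 in 20 sets. The gap to the nearest heart was 0.859 of the range for Tnfrsf1a in day 1 AMI heart 2 (the highest), 0.847 for Tnfrsf21 in day 1 AMI heart 1 (the lowest) and 0.911 for Tnfrsf22 in day 7 AMI heart 3 (the highest). The day 7 values of Tnfrsf22 were 6.47, 6.45, 6.94 and 6.43 CPM, so this gap was small in size.

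For 6 members the change against sham differed between day 1 and day 7 by the test of that difference, with a FC of 2 or more between the times and an adjusted p below 0.05. By the adjusted p alone 13 members differed, 10 higher and 3 lower at day 7. It was 3.16 for Tnfrsf11b, 1.17 for Tnfrsf26 and 1.09 for Tnfrsf25 on the log2 scale, higher at day 7, and -1.82 for Tnfsf14, -1.73 for Tnfrsf9 and -1.34 for Tnfrsf12a, lower at day 7.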

How the results depend on the processing

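Against 11 members higher at day 1, limma on log2(TPM + 1) gave 5, and 6 with no filter. The filtered TPM fits held 24 of the 27 tested members. They left out Tnfsf14, Tnfrsf9 and Tnfrsf26, which were all among the 11, so part of that drop is members not tested. The single member lower at day 1 became 0 in both of these fits, and the single member lower at day 7 became 0 in these and with log2(TPM + 0.1), and 2 with the adjusted p alone. From day 1 to day 7, 3 higher members became 6 with library sizes alone, 5 with log2(TPM + 0.1) and 10 with the adjusted p alone, and 3 lower members became 1 in each of the 3 TPM fits. Tnfsf14 and Tnfrsf9, both lower from day 1 to day 7, were absent from the filtered TPM fits, and in the unfiltered one both calls were lost. Other causes were not tested. Over all genes, the count lower fell from 448, 895 and 402 (day 1, day 7 and between them) to 64, 113 and 133 with log2(TPM + 1). Library sizes alone moved the median log2 FC of all genes by 0.27, 0.40 and 0.13 (day 1, day 7 and between them) and log2(TPM + 1) by 0.30, 0.51 and 0.21. Leaving out each heart gave 9 to 12 higher members at day 1, 14 to 16 at day 7 and 2 to 5 from day 1 to day 7 (5 without day 1 heart 2), with 2 to 3 lower in the last and 1 lower in the others. No called value changed sign. Same-numbered hearts correlated between -0.244 and 0.229, so same-numbered hearts were not treated as pairs. With a replicate block the counts were 12 and 1, 15 and 1, and 3 and 2, where Tnfrsf11b was gained at day 1 and Tnfrsf9 lost between times. The 15 untested members had at most 25 counts in a heart.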
